A study of Mus musculus with 2 samples.

Results

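The mitosis, kinetochore and cytokinesis genes are 54 genes of cell division, chosen by symbol from the 20938 genes of the deposited tables, and all 54 were found. RNA-seq was performed on splenic Treg cells of islet allograft recipients, with 1 library from a Foxp3-Mettl14f/+ cKO group and 1 library from a littermate control group, both taken on day 7. The recipients were mice on a C57BL/6J background, made diabetic with streptozotocin and given BALB/c islets without antibody treatment, so that diabetes and the allograft were shared by both groups. In the cKO group, a Foxp3-driven Cre acts on 1 floxed Mettl14 allele in cells that express Foxp3, and the other allele is wild type. The littermate controls are Mettl14f/f in the study's methods and wild type in the labels. The labels call the cKO library a Foxp3 knockdown, whereas the study describes a conditional Mettl14 heterozygote, and the latter is used here. The cells were enriched as CD4+CD25+ cells on magnetic columns and not sorted on Foxp3, and the age of the mice and the number of mice behind each library were not given in the sources used here.

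In a dividing cell, cyclin-bound Cdk1 starts mitosis, condensin compacts the chromosomes, and kinetochores tie each centromere to the spindle. The spindle checkpoint holds the anaphase-promoting complex back until every kinetochore is attached, after which securin and cyclin B are degraded, sister chromatids separate and a contractile ring divides the cell. Transcripts of most of these genes are low in resting lymphocytes and accumulate in G2 and M phase. Many of their promoters carry a cell cycle genes homology region (CHR), a short element near the transcription start. It is bound by the MuvB core, which acts within the repressive DREAM complex in resting cells and with B-Myb and Foxm1 in dividing cells. Treg cells divide after antigen encounter. The mouse spleen also holds erythroid and granulocyte precursors, which divide as part of blood formation, and dividing B cells.

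The promoters of the members were read from RefSeq (GRCm38.p6), with 250 bases before and 50 bases after the start, and 45 of the 54 members had an entry. The sequences printed are those of the member with the most reads (Mki67), of the 3 with the largest and the 3 with the smallest changes among these 45, so that the regulatory letters can be set beside the values. Each is the 250 bases upstream of the start on the gene's own strand, 5′ to 3′. Capitals mark the CHR letters TTTGAA or TTCGAA, the CCAAT box (CCAAT) and the E2F letters TTTCCCGC, TTTCGCGC, TTTGCCGC or TTTGGCGC, on either strand.
Mki67, chr7:135716380-135716629, minus strand: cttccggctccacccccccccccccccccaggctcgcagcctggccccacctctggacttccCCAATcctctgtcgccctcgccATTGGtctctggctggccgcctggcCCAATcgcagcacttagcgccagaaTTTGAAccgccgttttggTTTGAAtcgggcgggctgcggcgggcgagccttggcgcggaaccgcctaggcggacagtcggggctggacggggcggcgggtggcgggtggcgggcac
Cenpk, chr13:104229138-104229387, plus strand: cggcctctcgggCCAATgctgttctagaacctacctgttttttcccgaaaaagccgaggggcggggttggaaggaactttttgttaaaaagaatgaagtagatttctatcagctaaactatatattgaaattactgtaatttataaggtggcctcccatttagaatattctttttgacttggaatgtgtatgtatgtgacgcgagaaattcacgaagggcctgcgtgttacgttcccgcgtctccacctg
Cdk1, chr10:69352913-69353162, minus strand: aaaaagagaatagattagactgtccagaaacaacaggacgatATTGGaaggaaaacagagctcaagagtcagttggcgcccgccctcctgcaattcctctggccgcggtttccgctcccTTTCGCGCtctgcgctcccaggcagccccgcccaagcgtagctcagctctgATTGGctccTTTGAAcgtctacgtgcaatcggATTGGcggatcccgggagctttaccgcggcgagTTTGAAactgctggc
Ube2c, chr2:164769679-164769928, plus strand: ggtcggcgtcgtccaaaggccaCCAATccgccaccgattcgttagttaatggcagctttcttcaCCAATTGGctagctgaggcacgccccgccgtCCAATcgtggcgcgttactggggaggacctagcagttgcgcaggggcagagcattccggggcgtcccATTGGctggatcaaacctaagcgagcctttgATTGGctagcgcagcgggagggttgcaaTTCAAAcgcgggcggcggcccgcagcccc
Pttg1, chr11:43425982-43426231, minus strand: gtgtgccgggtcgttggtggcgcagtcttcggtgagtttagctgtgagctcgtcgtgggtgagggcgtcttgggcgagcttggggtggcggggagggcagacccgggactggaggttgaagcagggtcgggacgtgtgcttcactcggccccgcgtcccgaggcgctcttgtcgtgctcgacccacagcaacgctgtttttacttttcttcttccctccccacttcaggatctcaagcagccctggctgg
Bub3, chr7:131560120-131560369, plus strand: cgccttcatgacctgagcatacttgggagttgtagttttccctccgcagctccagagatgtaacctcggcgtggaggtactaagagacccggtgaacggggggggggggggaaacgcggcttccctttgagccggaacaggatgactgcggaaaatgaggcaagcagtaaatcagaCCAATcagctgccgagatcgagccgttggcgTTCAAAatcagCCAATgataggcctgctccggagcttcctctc
Racgap1, chr15:99651657-99651906, minus strand: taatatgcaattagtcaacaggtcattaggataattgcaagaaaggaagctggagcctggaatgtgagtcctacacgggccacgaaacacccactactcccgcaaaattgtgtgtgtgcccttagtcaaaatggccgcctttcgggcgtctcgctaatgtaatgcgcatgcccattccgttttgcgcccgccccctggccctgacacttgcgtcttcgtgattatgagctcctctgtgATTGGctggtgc
Mki67 held CHR letters at 2 places and CCAAT boxes on both strands, and Cdk1 held 2 CHR matches, CCAAT boxes and an E2F match. Ube2c held 1 CHR match close to the start and a run of CCAAT boxes, of which 1 pair overlaps on opposite strands. Cenpk showed a CCAAT box without CHR letters, and Pttg1 showed none of these letters in this window. Bub3 held 1 CHR match between CCAAT boxes, and Racgap1 a CCAAT box, with a CHR match of Racgap1 lying in the 50 bases after the start, which are not printed.

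CHR letters were found in 35 of the 45 member promoters (77.8%), compared with 2049 of the 13187 promoters of all genes tested (15.5%). They began within 50 bases of the start in 32 of the 45 (71.1%), against 3.86% of all promoters. Of 67 further mitosis genes that are not members, 55 had a promoter and 32 of these (58.2%) held CHR letters. Among 49 DNA replication genes, which act earlier in the cycle, 39 had a promoter and 5 (12.8%) held CHR letters. CCAAT boxes were present in 73.3% of member promoters and 38.6% of all promoters. The E2F letters showed the other order, with 8.89% of member promoters, 35.9% of DNA replication promoters and 3.55% of all promoters. A match of letters is a description of the sequence and does not show that a factor was bound.

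**Figure D1:**
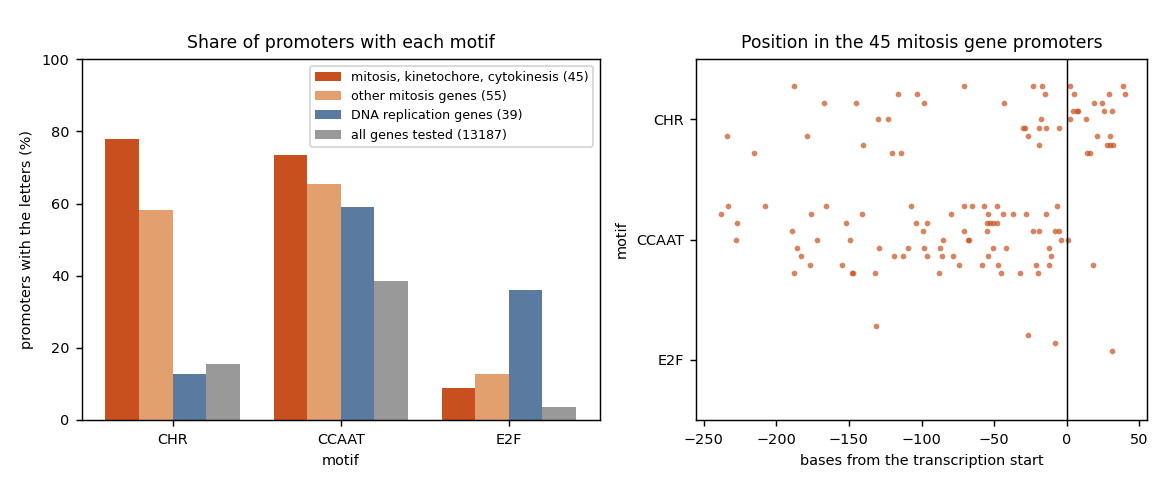
Left, percent of promoters that hold the CHR, CCAAT or E2F letters in 45 member, 55 other mitosis, 39 DNA replication and 13187 promoters of all genes tested, as bars from 0. Right, position of each match in the 45 member promoters in bases from the transcription start, 1 point per match; the CHR letters reach 77.8% in the members and gather around the start.

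The deposited values were read counts divided by a single size factor in each library. Undoing this with the smallest value recovered 20239325 reads in the control and 18327535 in the cKO library. Levels are the deposited values, where 1 read is worth 0.967 in the control and 1.14 in the cKO library. Changes are on a log2 scale, cKO over control, after 1 was added to both levels. A gene is called lower or higher at a change of at least 1.5-fold, which is 0.58 on this scale. The study used this fold threshold together with a second cutoff, below 0.1, of a quantity it does not name. That second cutoff was not part of these calls, so their counts are not comparable with those of the study. With 1 library per genotype no change could be set against a spread between mice. Intervals are 95% limits by the exact Clopper-Pearson method from read numbers, and they cover counting error only. Mettl14 had a level of 917 in the control and 741 in the cKO library (log2 fold change -0.31, interval -0.45 to -0.16, and 0.0067 after scaling to equal T cell core levels), and Foxp3 had 1497 and 1548 (0.05, interval -0.06 to 0.15, and 0.36 after that scaling). Late granulocyte markers such as S100a9 held 254134 and 308241 reads against 87520 and 60284 reads on 20 T cell core genes such as Cd3e, although the isolation removed non-CD4+ cells before the positive selection and the study describes the isolated cells as mostly Foxp3+ by flow cytometry. Reads of other cells' markers were thus abundant in both libraries, and their source was not tested.

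All 54 members passed the filter of a mean level of at least 1, and their lowest read counts were 348 in the control and 140 in the cKO library. In the cKO library 27 of the 54 members were lower, none was higher, and 53 had a change below 0 on the deposited scale. The median log2 fold change of the members was -0.57, with quartiles of -0.68 and -0.30, against -0.04 for all 16659 genes tested. Of all genes tested 24.2% were lower and 17.2% higher. Among the 8854 genes with a mean level at least that of the lowest member, 6.89% were lower and 10.7% higher, compared with 50% and 0% of the members. The counts given for each role below stand against the same shares. The interval lay below 0 for 49 members, above 0 for 1 and included 0 for 4.

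Of the members 22 lay within 0.1 of the 1.5-fold line, 14 of them past it and 8 short of it. The T cell core genes themselves had a median change of -0.31, and 19 of these 20 genes had a change below 0. Scaled so that these genes were equal in both libraries, which moved the median of all genes to 0.27, the median of the members was -0.26 and 2 members, Pbk and Cenpk, were lower. On that scale 39 members had a change below 0 and 15 above 0, and 19.2% of all genes were lower and 28.8% higher. In bulk RNA, fewer dividing cells and less of these transcripts per dividing cell cannot be told apart.

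**Figure D2:**
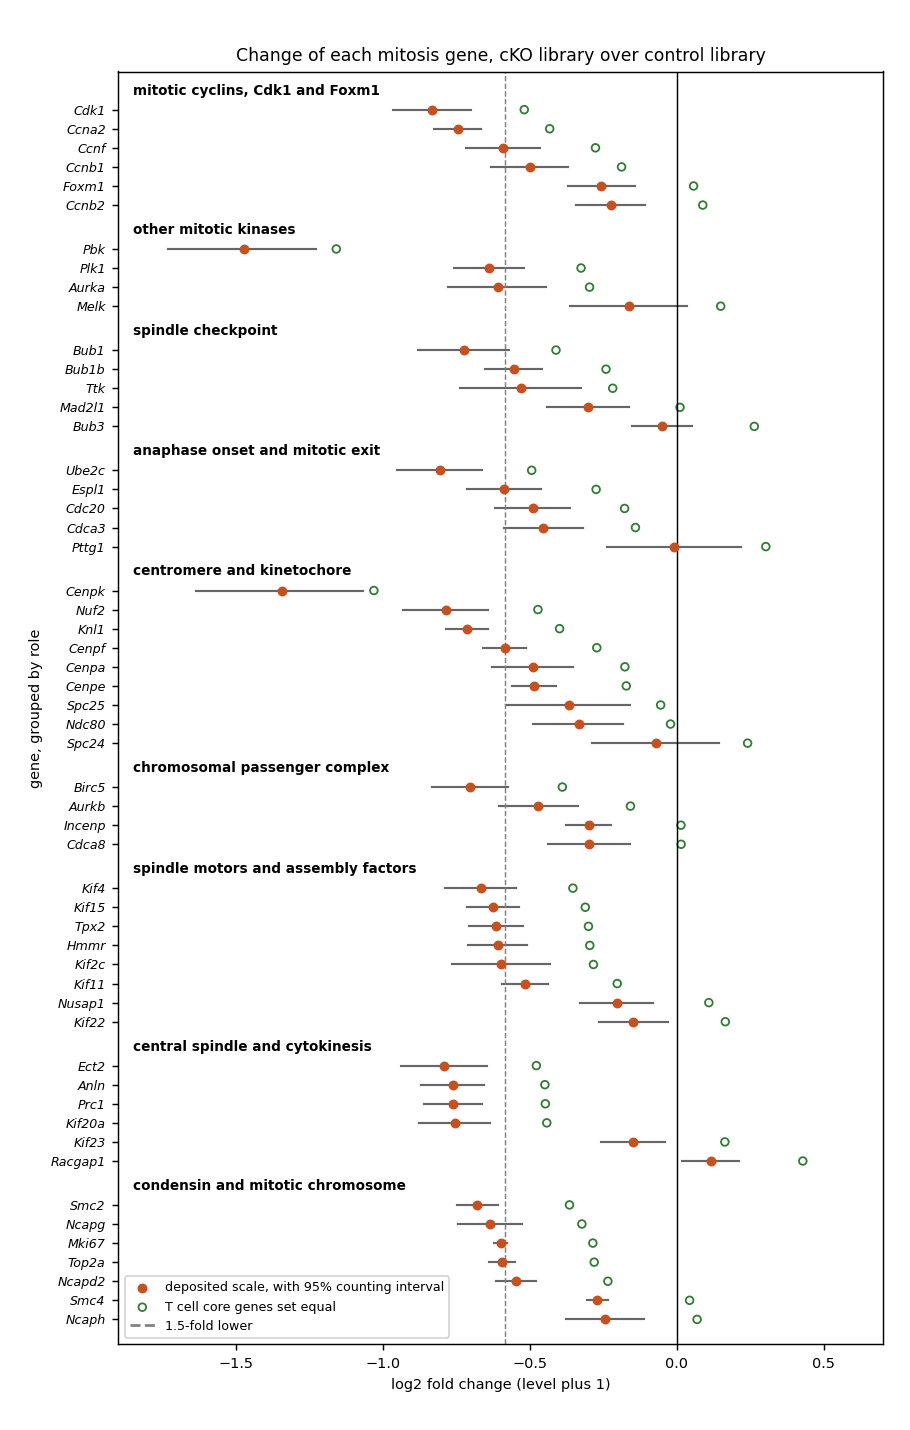
Log2 fold change of each of the 54 members, cKO over control, grouped by role. Filled points with lines are the deposited scale with its 95% counting interval, open circles the same gene after T cell core scaling, and the dashed line 1.5-fold lower; Pbk and Cenpk stand left of the other members at -1.47 and -1.34, and Racgap1 is the only filled point right of 0.

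Cdk1, the kinase that drives entry into mitosis, had a level of 1398 in the control and 785 in the cKO library, a change of -0.83 (interval -0.97 to -0.70). Its partner cyclin A2 (Ccna2) had 3529 and 2104 and fell by 0.75 on the log2 scale, to 1.68-fold below the control. The B-type cyclins, which complete the activation of Cdk1, had changes nearer to 0, with Ccnb1 at 1243 and 878 (-0.50) and Ccnb2 at 1389 and 1188 (-0.23). Ccnf, the F-box cyclin, had 1379 and 915 and lay at the 1.5-fold line (-0.59). Foxm1, the transcription factor that acts with B-Myb on these promoters, had 1485 and 1243, a change of -0.26 (interval -0.37 to -0.14) that was under 1.5-fold. In this role 3 of 6 members were lower, with a median of -0.55, and after T cell core scaling Foxm1 was at 0.06 and Ccnb2 at 0.09.

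Among the other mitotic kinases, Pbk, a MAPKK-like kinase of dividing cells, showed the largest change of all members. Its level was 541 in the control and 194 in the cKO library, on 559 and 171 reads, a fall of 1.47 on the log2 scale (interval -1.73 to -1.23). Plk1, which acts at centrosomes, kinetochores and the cleavage furrow, had 1577 and 1012 and fell by 0.64. Aurka, the centrosomal Aurora kinase, had 815 and 533 and fell by 0.61. Melk had 470 and 420, a change of -0.16 with an interval of -0.36 to 0.03 that included 0.

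Of the spindle checkpoint genes 1 of 5 (20%) was called lower. Of all genes tested 24.2% were lower, and 6.89% of those as high as the lowest member. The 1 gene was Bub1, the kinetochore kinase that recruits the other components, with levels of 961 and 581 (-0.72). Bub1b, which encodes BubR1 of the inhibitory complex, had 2285 and 1556 and a change of -0.55 (interval -0.65 to -0.46). The checkpoint kinase gene Ttk had 510 and 353 (-0.53) and Mad2l1, which encodes Mad2, had 997 and 809 (-0.30). Bub3, the adaptor of Bub1 and BubR1, was nearly level at 1649 and 1593, with a change of -0.05 (interval -0.15 to 0.05). After T cell core scaling it was at 0.26. Bub3 also serves in interphase cells and its transcript is not restricted to mitosis. Whether this bears on its change was not tested.

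For anaphase onset and mitotic exit 2 of 5 members were lower. Ube2c, the ubiquitin-conjugating enzyme of the anaphase-promoting complex, fell from 1169 in the control library to 668 in the cKO library, by 0.81 on the log2 scale (interval -0.95 to -0.66). Espl1, separase, which cleaves cohesin, had 1368 and 910 and lay at -0.59. Cdc20, the activator of the anaphase-promoting complex, had 1298 and 923 (-0.49), and Cdca3 had 1153 and 841 (-0.45), both under 1.5-fold. Pttg1, securin, the inhibitor of separase, had 337 and 334. Its change was -0.01 (interval -0.24 to 0.22), and it had the fewest reads of the members in the control library.

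Of 9 centromere and kinetochore genes 4 were lower. Cenpk, a subunit of the constitutive centromere network, had 405 and 159, on 419 and 140 reads, a change of -1.34 (interval -1.63 to -1.07). Knl1, the scaffold that docks the checkpoint proteins, had the most reads of this role, with levels of 4554 and 2779 and a fall of 0.71 (interval -0.78 to -0.64). Nuf2 had 1128 and 654 and fell by 0.79, and Cenpf had 3914 and 2608 and lay on the 1.5-fold line at -0.59. Cenpa, the centromeric histone H3 variant, had 1123 and 799 (-0.49), and the kinesin gene Cenpe had 3579 and 2556 (-0.49). Spc24 had 380 and 362, a change of -0.07 (interval -0.29 to 0.14), while Spc25 was at -0.37 and Ndc80 at -0.33.

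In the chromosomal passenger complex, which corrects faulty attachments and guides cytokinesis, 1 of 4 members was lower (25%). Of all genes tested 24.2% were lower, and 6.89% of those as high as the lowest member. Birc5 (survivin) had 1402 and 861 and fell by 0.70 (interval -0.83 to -0.58). Aurkb, its kinase, had 1146 and 827 (-0.47). Incenp, the scaffold with the most reads of the complex, had 3226 and 2621, a change of -0.30 (interval -0.38 to -0.22), and Cdca8 (borealin) was also at -0.30. After T cell core scaling Incenp and Cdca8 were each at 0.01.

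Spindle motors and assembly factors had a median of -0.60, and 5 of 8 were lower. Kif11, the bipolar kinesin that pushes spindle poles apart, had 3523 and 2463, a change of -0.52 (interval -0.59 to -0.44), just short of 1.5-fold. Kif15, which acts in parallel with it, had 2731 and 1771 and fell by 0.62 (interval -0.72 to -0.54). Kif4, Tpx2, Hmmr and Kif2c were also lower, at -0.67 to -0.60. Kif22, the chromokinesin that moves chromosome arms, had 1331 and 1201, a change of -0.15 (interval -0.27 to -0.03), and Nusap1 was at -0.20.

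The central spindle and cytokinesis genes had the lowest median of the roles, -0.76, with 4 of 6 lower. Ect2, the exchange factor that activates RhoA at the division plane, had 1116 and 645 and fell by 0.79 (interval -0.94 to -0.65). Prc1, which bundles midzone microtubules, had 2478 and 1462 and fell by 0.76, and Anln (anillin) and the kinesin gene Kif20a also fell by 0.76. Racgap1, the GTPase-activating subunit of centralspindlin, had 1723 in the control and 1866 in the cKO library, a change of 0.12 (interval 0.02 to 0.21). Its partner Kif23 had 1542 and 1390, a change of -0.15 (interval -0.26 to -0.04). On the deposited scale Racgap1 was the 1 member with a change above 0, and it was not called higher, whereas after T cell core scaling it was at 0.43 among 15 members above 0.

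Of 7 condensin and mitotic chromosome genes 4 were lower. Mki67, the chromosome surface protein used as a proliferation marker, held the most reads of all members, 44887 in the control and 25205 in the cKO library. Its levels were 43423 and 28662, a fall of 0.60 (interval -0.62 to -0.58). Top2a, topoisomerase II alpha, which untangles sister chromatids, had 11822 and 7828 and lay at -0.59 (interval -0.64 to -0.55). The condensin subunits Smc2 (4653 and 2907, -0.68) and Ncapg (1880 and 1209, -0.64) were lower, and Ncapd2 was at -0.55. Smc4 had the second highest read count of the members, with levels of 14036 and 11638 and a change of -0.27 (interval -0.31 to -0.23), and Ncaph was at -0.24.

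Together the 54 members held 161962 reads in the control library, 0.800% of all reads, and 95729 in the cKO library, 0.522%. Mki67 alone made up 27.7% and 26.3% of these. Without Mki67 the shares were 0.578% (exact interval 0.575 to 0.582) and 0.385% (0.382 to 0.388). Levels per length were compared as reads per kb of exon per 1000000 reads (RPKM), with exon lengths from GENCODE. On this scale Mki67 was highest in both libraries at 220 and 137, followed by Smc4 at 138 and 107, Top2a at 66.99 and 41.7 and Ccnb2 at 46.3 and 37.2. Cenpk was lowest in both, at 3.96 and 1.46. The order of the members was close to the same in both libraries (Spearman's rho 0.93 across 54 genes, which are not independent replicates). Pbk moved down most in this order, from place 24 in the control library to place 48 in the cKO library, and Racgap1 moved up most, from place 35 to place 18.

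**Figure D3:**
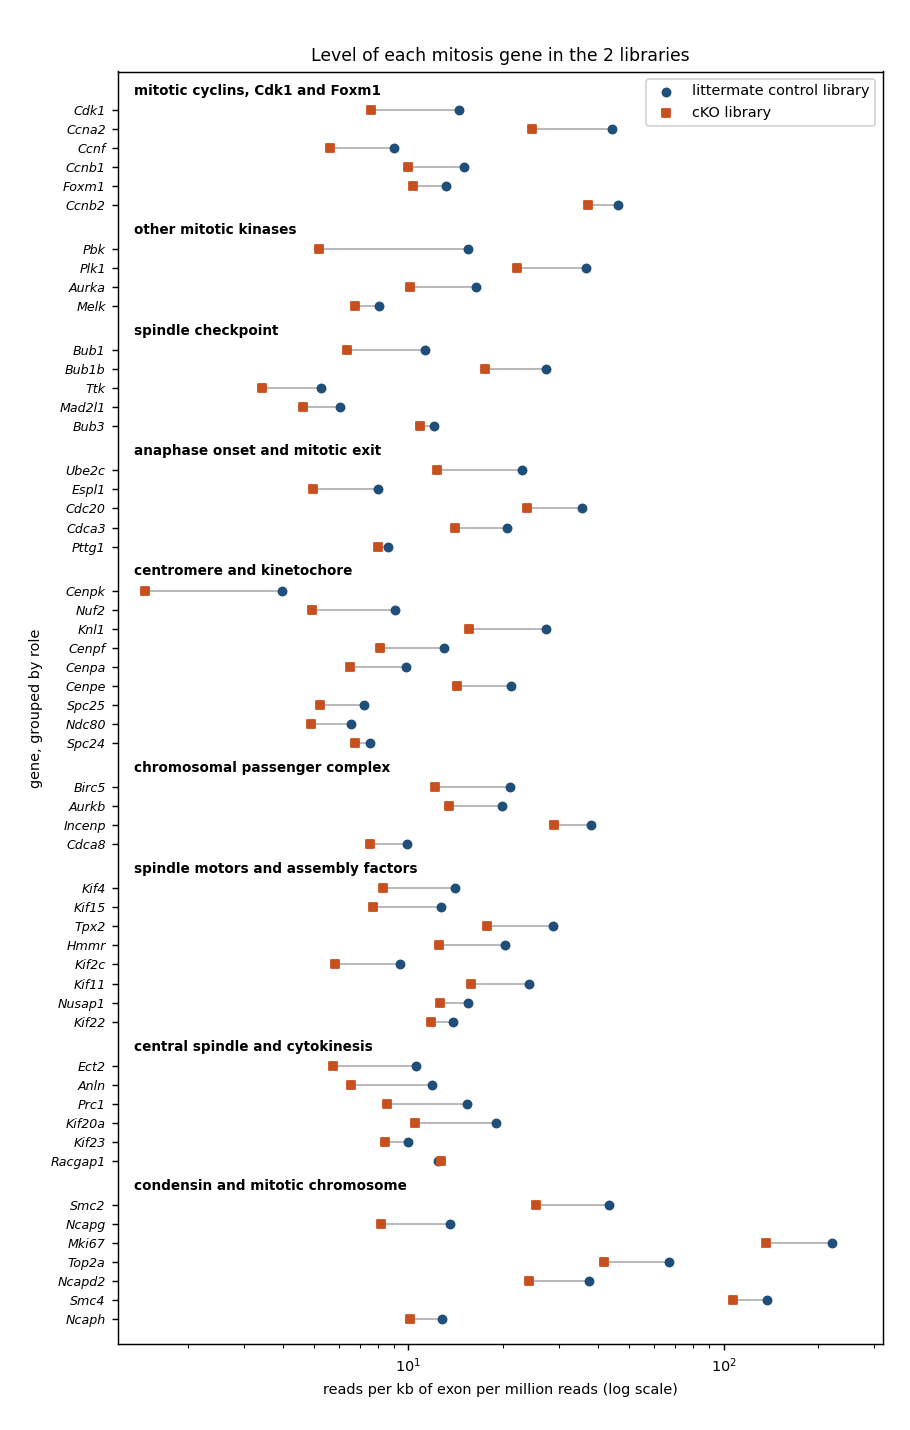
Level of each of the 54 members in the control library (circles) and the cKO library (squares), as RPKM on a log axis, grouped by role. Mki67, Smc4 and Top2a are highest in both libraries, and for Racgap1 the symbols overlap at 12.4 and 12.6.

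Subunits of 1 complex did not move by equal amounts, and a ratio of reads between subunits within a library does not depend on the scaling. The pairs below are the genes with the lowest and highest change in each complex or group. They were chosen after their values were seen, and their intervals are exact and conditional on the read totals. For the 4 subunits of the NDC80 complex, there were 2.97 Nuf2 reads per Spc24 read in the control and 1.81 in the cKO library, a log2 change of -0.71 (interval -0.98 to -0.45). Ect2, which was grouped with centralspindlin but is not a subunit of it, had 0.648 and 0.346 reads per Racgap1 read. This was the largest gap of the 6 groups compared, at -0.91 (interval -1.08 to -0.73). The centralspindlin subunits Kif23 and Racgap1 themselves had changes of -0.15 and 0.12. Cdk1 and Ccnb2 had nearly equal reads in the control library, at a ratio of 1.01, which was 0.660 in the cKO library (-0.61, interval -0.78 to -0.43). The change was -0.50 for Bub1b over Bub3, -0.43 for Smc2 over Ncaph in condensin I and -0.40 for Birc5 over Cdca8. The change of a member was not closely related to its exon length (rho -0.11) or to its level per length in the control library (rho -0.17) across the 54 genes. By promoter, the 35 members with CHR letters had a median of -0.59 and a range of -0.83 to 0.12, and the 10 without had a median of -0.39 and a range of -1.34 to -0.01.

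The 67 further mitosis genes, a list written from general knowledge, had a median of -0.48. Of these 26 were lower and none higher, against 24.2% of all genes lower and 17.2% higher, and 64 were below 0. The largest fall was in Cenpm, of the constitutive centromere network, with levels of 227 and 23.9 on 235 and 21 reads (-3.20, interval -3.97 to -2.61). Fam83d, a spindle protein gene, had 181 and 48.9 (-1.87), and Cdc25c, a phosphatase that activates Cdk1, had 246 and 68.2 (-1.83). The 3 genes above 0 were Cdc25b, another Cdk1 phosphatase, at 1276 and 1593 (0.32), Cep55 at 0.09 and Arhgap11a at 0.03. After T cell core scaling the median was -0.16, 14 genes were lower, against 19.2% of all genes, and Cdc25b was higher at 0.63.

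The DNA replication genes, 49 genes of S phase, had a median of -0.61, with 27 lower, none higher and 48 below 0, against 24.2% of all genes lower. After T cell core scaling the median was -0.30 with 5 lower (19.2% of all genes). By edgeR's exact test at the assumed coefficient of 0.2 described at the end, 4 of the 49 were called lower. The same test called 1488 of all 14863 genes tested lower. Gins2, of the replicative helicase, had 383 and 171 (-1.16). Chek1, the replication checkpoint kinase gene, had 423 and 199 (-1.08) and Ccne2, cyclin E2, had 546 and 259 (-1.07). Gins4 was the 1 gene above 0, at 676 and 686 (0.02). The difference between this list and the members was not tested. The 12 MuvB, DREAM and B-Myb subunits belong to complexes that bind the CHR and E2F letters. Of these, 2 were lower and 2 higher (16.7% each), against 24.2% of all genes lower and 17.2% higher. Their median was -0.15. After T cell core scaling their median was 0.17, none was lower and 3 were higher, against 19.2% and 28.8% of all genes. Mybl2 (B-Myb) had 1180 and 721 (-0.71) and E2f5 had 184 and 98.9 (-0.89), whereas Lin52 had 181 and 309 (0.77) and Lin37 had 317 and 498 (0.65). Rbl2, the pocket protein of DREAM in resting cells, had 3167 and 3877 (0.29).

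**Figure D4:**
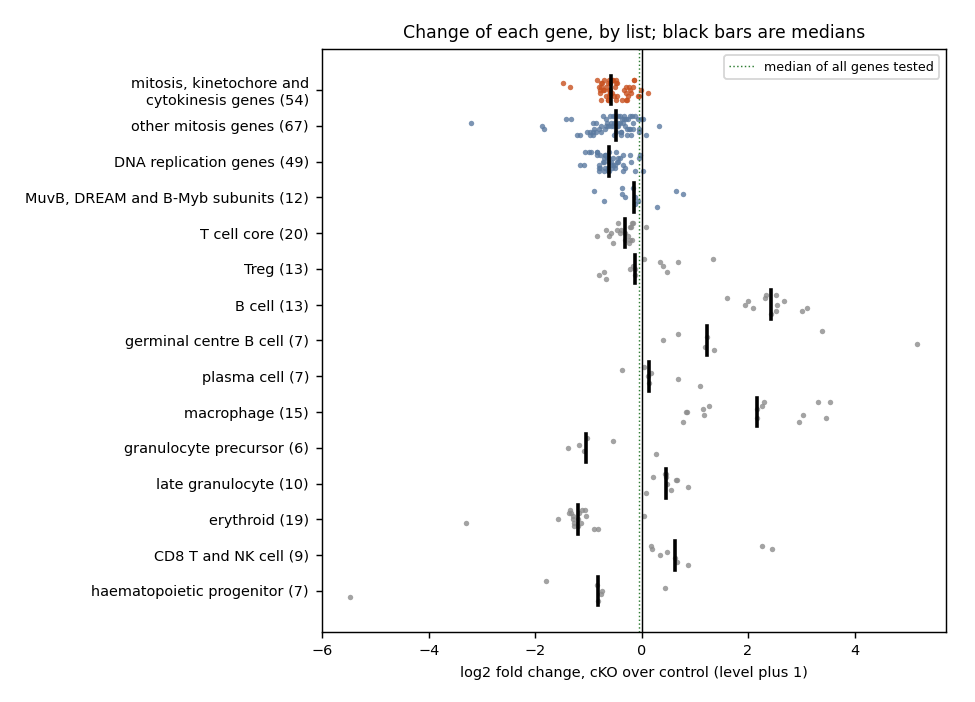
Log2 fold change of each gene, cKO over control on the deposited scale, for the members, 3 further cell cycle lists and 11 cell type marker lists, with the number of genes tested in brackets, 1 point per gene and black bars for medians. The members centre on -0.57, between the T cell core markers at -0.31 and the erythroid markers at -1.19, while B cell and macrophage markers lie above 0.

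Markers of several cell types moved together with the members. For comparison, 24.2% of all genes tested were lower and 17.2% higher on the deposited scale. After T cell core scaling these shares were 19.2% and 28.8%. Of 19 erythroid markers 18 were lower (median -1.19), and their summed reads were 3536 per 1000000 reads (RPM) in the control and 1410 in the cKO library. Of 6 granulocyte precursor markers 4 were lower (-1.05), at 1019 and 492 RPM, and of 7 haematopoietic progenitor markers 6 were lower (-0.81), at 557 and 317 RPM, with Mecom at 0 reads in the cKO library. The T cell core markers had 4324 and 3289 RPM with 3 of 20 lower (15%). The 13 Treg markers had 543 and 557 RPM and a median of -0.12. Of these, 3 were lower (23.1%) and 2 higher (15.4%), near the shares of all genes. Markers of other cell types moved the opposite way, except the plasma cell markers, whose sum was nearly level. All 13 B cell markers were higher (2.42), at 476 and 2410 RPM, and all 15 macrophage markers (2.17), at 1437 and 2932. Germinal centre B cell markers, of a dividing B cell type, were higher for 6 of 7 (1.22), at 101 and 162 RPM, with Rgs13 at 0 reads in the control library. Plasma cell markers had 2227 and 2225 RPM with 2 of 7 higher, late granulocyte markers 12556 and 16819 with 3 of 10 higher, and CD8 T and NK cell markers 242 and 452 with 5 of 9 higher. For each erythroid marker read there were 2.26 member reads in the control and 3.70 in the cKO library, and for each granulocyte precursor read 7.85 and 10.6, so the summed members were lower by less than either list. For each T cell core read there were 1.85 and 1.59 member reads, and for each Treg marker read 14.8 and 9.38. Against the haematopoietic progenitor markers the ratio was 14.4 in the control and 16.5 in the cKO library. For the remaining marker lists it was lower in the cKO library. After T cell core scaling 17 erythroid, 4 granulocyte precursor and 2 progenitor markers were lower and 1 progenitor marker was higher. No T cell core marker was then lower, and of the Treg markers 0 were lower and 5 higher, with a median of 0.19. On that scale 13 B cell, 15 macrophage, 7 germinal centre B cell, 2 plasma cell, 8 late granulocyte and 7 CD8 T and NK cell markers were higher. The part of these cell types in the lower member levels was not tested.

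The reads of both libraries were also compared by an exact binomial test, two-sided, with library totals scaled by TMM, which speaks for the 2 libraries and not for the genotypes. At an adjusted p under 0.1 and 1.5-fold it called 27 of the 54 members lower and none higher, against 18.1% of the 14863 genes tested called lower. When a biological coefficient of variation of 0.2 was assumed, since none can be estimated, edgeR's exact test called 2 members lower, Pbk and Cenpk, and none higher, against 10% of genes called lower. With an assumed coefficient of 0.4 no member was called.

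Some members share sequence with other genes, and the strand setting of the counting was not given in the sources used here. The exons of Kif20a overlap those of Cdc23 on the opposite strand over 1271 bases, 29.3% of its exon length, and Cdc23 had 1606 and 1143 reads. Ube2c overlaps Tnnc2 over 22.8% of its exon length, but Tnnc2 had 0 reads in both libraries. Kif4, Ncapg, Ccna2 and Prc1 overlap an opposite gene over 11.1% to 15.1%. Transcripts of Ccnb1 are at least 95% identical over 200 or more bases to 4 other annotated genes, and Pbk matches Gm12387 over 955 bases at 95.4%. Racgap1 matches AC148020.1 over 488 bases at 98.2%. The values of these genes are uncertain to that extent, and reads from an overlapping gene on the other strand cannot be told apart from theirs.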

How the data were processed

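RNA-seq of 2 libraries of splenic Treg cells was used, 1 per genotype. Per the labels the authors aligned reads with TopHat to mm10. The submitters' processing notes list bcl2fastq 2.0, STAR, StringTie and DESeq2. The annotation, counting tool and strand setting were not given in the sources used here. The deposited values are a signal, whole counts of reads scaled by a single size factor in each library: 100% of them lie within 0.01 of a whole multiple of the smallest value.

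The members and lists were chosen with earlier results of these data known. All 20938 genes were compared with a pseudocount of 1 and a minimum mean of 1. Full values were given for the 2 members of each role with the most reads, for the 6 largest and 6 smallest changes, and for members opposite to most. TMM factors and exact tests came from edgeR 4.0.16 in R 4.3.3, median of ratios from DESeq2 1.42.0, intervals and binomial tests (at least 10 reads, Benjamini-Hochberg adjustment) from scipy 1.17.1 in Python 3.11.15, and near-identical transcripts from blastn 2.17.0. The binomial test, the counting intervals and edgeR's exact test were also run on simulated reads with counting error only. The motif search was run on short test sequences, and the other steps were not simulated. Coordinates and exon lengths came from GENCODE M21 (GRCm38), and 1 RefSeq promoter per gene was used, that nearest the principal transcript start where 1 is annotated. Of 20 erythroid markers, Ahsp was not found. A count of 3 reads corresponds to 0.148 (control) and 0.164 (cKO) per 1000000 reads. No comparison has a test between genotypes.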

Additional observations from a re-analysis of the deposited data

How the results depend on the processing

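No paired analysis was possible because the design has a single library on each side. The restriction to genes as high as the lowest member was chosen after seeing the data. With a pseudocount of 0.1 or 5, no filter, a minimum mean of 10, TMM, median-of-ratios or library-total scaling, or genes above 0 in both libraries, the members' count stayed within 1.5 times 27 and no member called lower changed sign. After scaling to equal T cell core genes, 2 members were lower, as were 14 other mitosis genes, with 1 of them higher. Of all genes, 3198 were lower on that scale and 4795 higher. The medians were then -0.26 for the members, -0.16 for the other mitosis genes and -0.30 for the DNA replication genes, and all 54 members moved past their counting interval.

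At 2-fold, 2 members and 8 other mitosis genes were lower. Of the 16659 genes tested, 3019 were lower and 1722 higher at 2-fold. With edgeR's exact test at an assumed coefficient of 0.2 the counts were 2 members and 8 other mitosis genes lower, with 1488 of all genes lower and 931 higher; at 0.4 they were 0, 1, 569 and 229. Of all genes, 2035 were lower at a minimum mean of 10, 1904 when above 0 in both libraries and 2683 by the binomial test. Among genes as high as the lowest member, 16 of 54 other mitosis genes were lower, and of all 8854 such genes 610 were lower and 950 higher. The members had at least 348 reads in the control and 140 in the cKO library. Counting error still leaves some calls uncertain. The interval included 0 for 4 members, and that of Espl1, called lower, spanned the 1.5-fold line (-0.72 to -0.46). With 1 library per genotype the spread between mice is unknown.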
